A study of Mus musculus with 4 samples.

Results

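The comparison set 2 mouse embryonic stem cell lines without the mitochondrial fission gene Dnm1l or Fis1 against a line without the fission gene Mff. It used 3 of the 4 libraries of the series, 1 of Dnm1l-/-, 1 of Fis1-/- and 1 of Mff-/-, chosen by their genotype labels. The remaining library came from the parental line e14tg2a, the control, in which all 3 knockouts were made. The series asks how the fission genes act on the shape of mitochondria and on energy metabolism. The control took no part in the differences and is given beside them. All 4 lines were of the 129/Ola strain at passages 30 to 35. They were grown on mouse embryonic fibroblast (MEF) feeder cells in low-glucose medium with serum and leukemia inhibitory factor. The labels give neither the number of clones per knockout nor the way the knockouts were made. The comparison took in 10688 of 20619 protein-coding genes, those averaging 1 FPKM or more across the libraries. FPKM counts the fragments of a transcript relative to its length and to the total of its library.

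Mitochondria divide when the dynamin-like GTPase Drp1, the protein of Dnm1l, is recruited from the cytosol to the outer membrane and constricts it. Mff is a membrane receptor of Drp1, and Fis1 is an outer membrane protein that also acts in division. ATF4 is the transcription factor of the integrated stress response, which answers amino acid shortage, endoplasmic reticulum stress and mitochondrial dysfunction. It raises transcription of genes for amino acid synthesis and uptake, often through composite C/EBP-ATF elements in their promoters.

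Genes of this response were lower in Dnm1l-/- and Fis1-/- than in Mff-/-, and the promoters of 4 of them are shown because their genes stood among the larger differences of the ATF4 list and hold a match to the core of that element, TGATGNAA. Each run is 5′ to 3′ on the strand of the gene, from 250 bases before to 50 bases after the RefSeq start (GRCm38.p6). Capitals mark the match to TGATGNAA, which in these 4 lies on the opposite strand. The windows are chr2:119350992-119351291 on the plus strand for Chac1, chr14:55540016-55540315 on the plus strand for Pck2, chr7:126625421-126625720 on the minus strand for Nupr1 and chr2:152344011-152344310 on the minus strand for Trib3.
Chac1: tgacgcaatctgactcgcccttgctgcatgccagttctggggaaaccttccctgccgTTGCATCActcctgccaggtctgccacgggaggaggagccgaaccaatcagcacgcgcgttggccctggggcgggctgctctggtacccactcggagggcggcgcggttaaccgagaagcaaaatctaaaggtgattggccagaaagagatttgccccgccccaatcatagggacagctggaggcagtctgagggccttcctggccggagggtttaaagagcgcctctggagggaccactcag
Pck2: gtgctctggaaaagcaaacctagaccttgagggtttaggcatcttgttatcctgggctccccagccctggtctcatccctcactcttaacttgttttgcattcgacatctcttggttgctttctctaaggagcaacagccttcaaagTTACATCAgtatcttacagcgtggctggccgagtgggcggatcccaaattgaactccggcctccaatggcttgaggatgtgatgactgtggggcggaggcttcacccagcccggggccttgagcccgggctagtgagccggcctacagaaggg
Nupr1: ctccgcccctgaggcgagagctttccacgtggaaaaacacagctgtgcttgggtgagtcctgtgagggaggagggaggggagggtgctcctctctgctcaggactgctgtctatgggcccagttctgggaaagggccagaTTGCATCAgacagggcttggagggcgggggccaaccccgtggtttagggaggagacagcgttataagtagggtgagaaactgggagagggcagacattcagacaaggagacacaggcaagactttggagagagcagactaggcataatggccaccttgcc
Trib3: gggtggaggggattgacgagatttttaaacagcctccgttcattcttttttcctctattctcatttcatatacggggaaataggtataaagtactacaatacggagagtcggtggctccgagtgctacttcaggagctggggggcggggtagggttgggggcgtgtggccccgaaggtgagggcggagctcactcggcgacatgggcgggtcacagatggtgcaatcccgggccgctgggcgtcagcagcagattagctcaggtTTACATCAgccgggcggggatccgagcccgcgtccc
The match began at -193 from the start in Chac1, at -103 in Pck2 and at -110 in Nupr1, and at 14 on the same scale in Trib3. TGATGNAA, searched on both strands, was found in 11 of the 34 measured genes of the ATF4 list that have a promoter in the RefSeq table (32.4%) and in 171 of the 8143 compared genes that have one (2.10%). Of the 16 genes of the list at least 2-fold lower in both lines, 6 held it (37.5%), near the 32.4% of the measured list. The list was drawn up from known genes of the response, which often hold this element. Its share therefore describes the list, and nothing is read from it about these libraries. The cyclic AMP response element TGACGTCA, which does not overlap that motif, was in 1 of the 34 (2.94%) and in 287 of the 8143 (3.52%). A match of letters is not a measured binding site.

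With 1 library per line and no replicates, the variation between cultures of a line is unknown, and no test was made. The 2 knockouts are different genotypes and are not replicates of each other. A gene was counted where both lines lay at least 2-fold from Mff-/- in the same direction on the log2(FPKM + 1) scale, on which differences of weakly expressed genes come out too small. Both differences share the Mff-/- library, so that anything particular to that 1 culture or library moves both. Deposited FPKM summed to 620692 in Dnm1l-/-, 597921 in Fis1-/-, 707746 in Mff-/- and 623303 in control. Depth was estimated from the steps between low values, at 35300000 to 37800000 fragments per library. A transcript of 2 kilobases at 1 FPKM then had 70.6 to 75.6 fragments. The stem cell genes Pou5f1, Sox2 and Zfp42 were at 808 to 1753 FPKM, 95.6 to 110 FPKM and 353 to 380 FPKM over the 4 libraries.

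The targeted genes were examined first. Mff was at 29.2 FPKM in Dnm1l-/- and 34.7 in Fis1-/-, against 11.8 in Mff-/- and 28.9 in control. Dnm1l was at 22.9 FPKM in Dnm1l-/- and 35.5 in Fis1-/-, against 43.3 in Mff-/- and 35.0 in control. Each of these genes was lowest in the library labelled as its knockout. Fis1 was at 96.4 FPKM in Dnm1l-/- and 56.2 in Fis1-/-, against 110 in Mff-/- and 103 in control, and its sum was likewise lowest in its own knockout. Its transcripts went opposite ways there. NM_025562 was at 80.4 FPKM in Dnm1l-/- and 19.5 in Fis1-/-, against 94.2 in Mff-/- and 89.4 in control, whereas NM_001163243 was at 16.0 FPKM in Dnm1l-/- and 36.8 in Fis1-/-, against 15.6 in Mff-/- and 13.6 in control. Its neighbour Cldn15, a tight junction gene on chromosome 5 from 136967869 to 136975845 (mm10), was at 0.308 FPKM in Dnm1l-/- and 22.7 in Fis1-/-, against 0.112 in Mff-/- and 0.926 in control. RNA remained from all 3 targeted genes in their own knockouts, and the protein was not measured here. Among 17 measured genes of mitochondrial fission and fusion, Mff was the single one past 2-fold in both lines. The median difference of that list was 0.29 in Dnm1l-/- and 0.09 in Fis1-/-. The mean of both lines changed sign, to -0.03, once the trend on transcript length was removed. Yme1l1, which encodes a protease of the inner membrane, was at 44.6 FPKM in Dnm1l-/- and 49.0 in Fis1-/-, against 27.0 in Mff-/- and 35.8 in control.

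Y-linked transcripts were near 0 in Dnm1l-/- and Fis1-/- and present in Mff-/- and control, whose parental line is male. Eif2s3y, a translation initiation factor gene of the Y chromosome at 1010612 to 1028598 (mm10), was at 0.136 FPKM in Dnm1l-/- and 0.0834 in Fis1-/-, against 46.8 in Mff-/- and 33.0 in control. By the estimated depth these values stand for 8.5 and 5.3 fragments in the 2 lines and 2966.8 in Mff-/-. Ddx3y, which encodes an RNA helicase, was at 0.0121 FPKM in Dnm1l-/- and 0.0178 in Fis1-/-, against 4.17 in Mff-/- and 3.59 in control. Uty, a histone demethylase gene family member, was listed at 0 in Dnm1l-/- and was at 0.00524 FPKM in Fis1-/-, against 1.61 in Mff-/- and 2.31 in control. Uba1y, a Y-linked ubiquitin-activating enzyme gene, was listed at 0 in both lines, against 1.15 FPKM in Mff-/- and 1.07 in control. Erdr1 was the one Y-linked gene of the compared 3 with high values in every library, at 92.8 FPKM in Dnm1l-/- and 117 in Fis1-/-, against 316 in Mff-/- and 408 in control. It lies in the region that X and Y share, at 90785442 to 90816465 on the Y in these data. Of the 39 protein-coding Y genes in the table, 17 were at 0 in all 4 libraries. In bulk RNA, fewer cells of a type and less RNA per cell cannot be told apart. The labels do not say whether the 2 lines were derived separately or share a subclone of the parental line, and a shared origin and the effect of the knockouts cannot be told apart. This holds for all that the 2 lines have in common below. Whether the absence of Y-linked RNA bears on any other difference was not tested, and every gene group below was compared between libraries that also differed in it.

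Of the 10688 genes, 5302 (49.6%) lay above Mff-/- in both lines and 4475 (41.9%) below it. At least 2-fold higher in both lines were 544 genes (5.09%), and at least 2-fold lower were 493 (4.61%). In Dnm1l-/- alone 728 genes (6.81%) were higher and 592 (5.54%) lower than in Mff-/-. In Fis1-/- alone 736 (6.89%) were higher and 640 (5.99%) lower. Past 2-fold in Dnm1l-/- but not in Fis1-/- were 283 genes, and in Fis1-/- but not in Dnm1l-/- 339. Genes past it in opposite directions numbered 0. Of 299 noncoding RNAs 9 (3.01%) were higher and 27 (9.03%) lower in both lines. Between Dnm1l-/- and Fis1-/- themselves, 37 genes (0.346%) differed 2-fold and the median size of the difference was 0.11. The all-gene median of the mean of both lines less Mff-/- was 0.06 on the log2 scale. Of the counted genes, 52.5% were higher with deposited values. Rescaling each library to the mean FPKM total moved the all-gene median by 0.18, with 899 genes then higher and 305 lower (74.7% higher). When the 1% of genes with the most FPKM were set aside before rescaling, the shift was 0.16 and the counts were 835 and 329 (71.7% higher). With a pseudocount of 5 the counts were 158 and 256 (38.2% higher). The direction of small differences therefore depends on the scaling, and list medians are to be read against these shifts. At the 2-fold line, Plod1 lay just inside with a smaller difference of 1.00168 and Dis3l2 just outside with 0.999904. On the lower side Rpusd3 lay just inside with -1.00169 and Fam195a just outside with -0.999497.

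**Figure D1:**
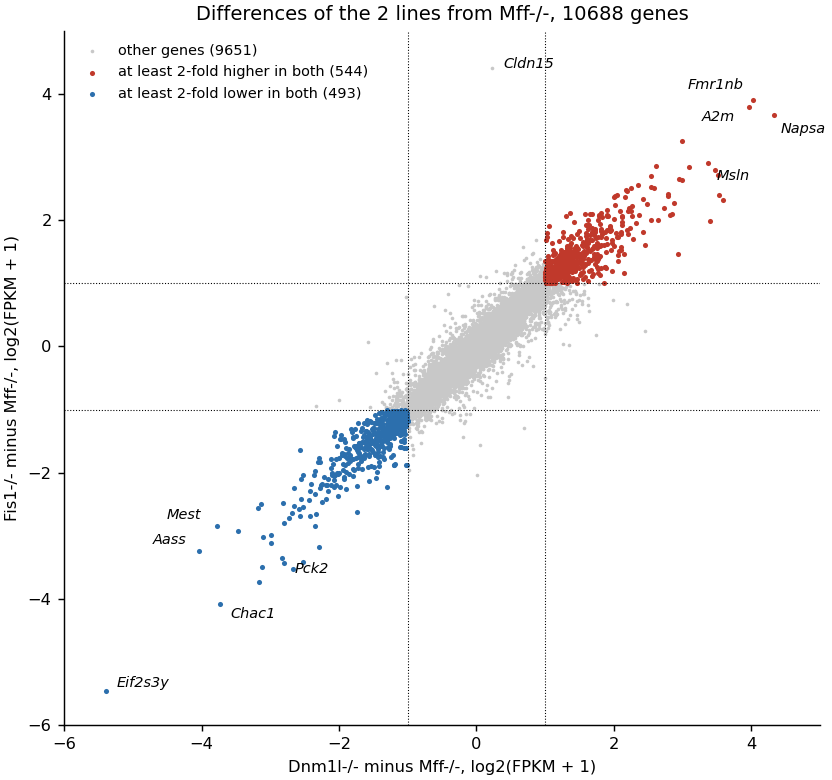
Each point is 1 of the 10688 genes, with its difference of Dnm1l-/- from Mff-/- on the horizontal axis and that of Fis1-/- from Mff-/- on the vertical axis, both on the log2(FPKM + 1) scale, and dotted lines at 2-fold. The 544 red and 493 blue genes lie past 2-fold in both lines, 0 lie in the corners of opposite direction, and both axes share the Mff-/- library; Cldn15 stands alone at 4.41 in Fis1-/- and 0.23 in Dnm1l-/-.

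The differences followed transcript length. In the tenth of genes with the shortest transcripts, 292 to 1078 bases, the median difference was -0.48 in Dnm1l-/- and -0.54 in Fis1-/-, with 26 genes counted as higher and 154 as lower. In the tenth with the longest, 5791 to 19827 bases, the medians were 0.40 and 0.47, with 95 genes higher and 7 lower. The same held for GC content, known for 10673 of the genes. From 34.4% to 42.1% GC the medians were 0.34 in Dnm1l-/- and 0.39 in Fis1-/-, and from 58.4% to 72.8% GC they were -0.31 and -0.32. With the length trend removed by a smooth fit in each line, 425 genes (3.98%) were higher and 395 (3.70%) lower. Past 2-fold both with and without the trend were 339 genes higher (3.17%) and 313 lower (2.93%). These are named as holding without the length trend in what follows. A trend on GC content remained in them. With the length trend removed, the median of the mean of both lines was 0.18 from 34.4% to 42.1% GC. From 58.4% to 72.8% GC it was -0.27. What gave rise to the trends was not tested.

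**Figure D2:**
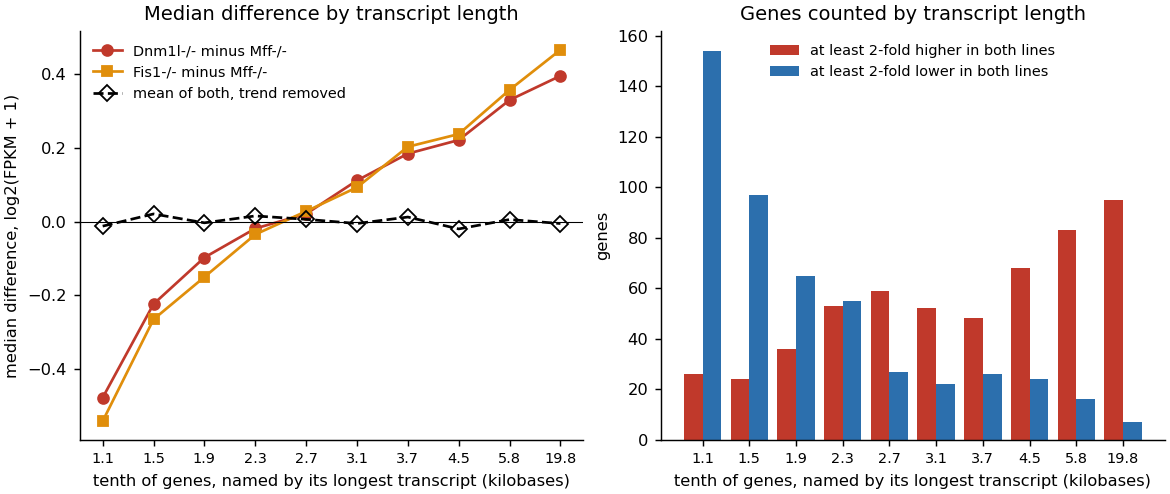
The left panel plots the median difference from Mff-/- on the log2(FPKM + 1) scale for 10 equal groups of genes by transcript length, for Dnm1l-/-, for Fis1-/- and for the mean of both after removal of the trend; the right panel gives the number of genes past 2-fold in both lines. The medians climb with length from -0.48 to 0.40 in Dnm1l-/- and from -0.54 to 0.47 in Fis1-/-, while counts of lower genes drop from 154 to 7.

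The 12 genes most above Mff-/- were of mixed function. A2m, which encodes the protease inhibitor alpha-2-macroglobulin (chromosome 6, 121636173 to 121679238, mm10), was at 24.2 FPKM in Dnm1l-/- and 21.6 in Fis1-/-, against 0.613 in Mff-/- and 14.2 in control. Control stood with the 2 lines here, and Mff-/- alone was low. Fmr1nb, a testis-expressed gene beside Fmr1 on the X chromosome (68761839 to 68804560), was at 39.4 FPKM in Dnm1l-/- and 36.5 in Fis1-/-, against 1.49 in Mff-/- and 5.28 in control. Napsa, which encodes the aspartic protease napsin A (chromosome 7, 44572445 to 44586846), was at 127 FPKM in Dnm1l-/- and 80.01 in Fis1-/-, against 5.34 in Mff-/- and 15.1 in control. In both of these genes the 2 lines were high and control was nearer to Mff-/-. Msln, which encodes the surface protein mesothelin, was at 30.9 FPKM in Dnm1l-/- and 22.1 in Fis1-/-, against 2.09 in Mff-/- and 0.747 in control. Sohlh2, a transcription factor gene of germ cells, was at 10.4 FPKM in Dnm1l-/- and 7.95 in Fis1-/-, against 0.433 in Mff-/- and 0.713 in control. Ptch1, the Hedgehog receptor gene, was at 16.2 FPKM in Dnm1l-/- and 19.4 in Fis1-/-, against 1.80 in Mff-/- and 5.99 in control. Gpc3, the gene of a heparan sulfate proteoglycan of the cell surface, was at 70.3 FPKM in Dnm1l-/- and 79.1 in Fis1-/-, against 11.2 in Mff-/- and 23.5 in control. The other 5 of the 12 were the cysteine dioxygenase gene Cdo1, the serpin gene Serpinb9b, the ubiquitin ligase gene Rnf128, the calcium-binding protein gene S100a1 and the carbonic anhydrase gene Car13. Their differences were 2.95 to 3.52 in Dnm1l-/- and 2.65 to 3.26 in Fis1-/-.

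Among the 12 genes most below Mff-/-, Eif2s3y came first and Chac1 and Pck2 belong to the ATF4 response described next. Aass, which encodes the first enzymes of lysine breakdown (chromosome 6, 23072173 to 23132986, mm10), was at 0.423 FPKM in Dnm1l-/- and 1.45 in Fis1-/-, against 22.3 in Mff-/- and 8.78 in control. G0s2, the gene of an inhibitor of triglyceride lipolysis, was at 0.657 FPKM in Dnm1l-/- and 0.282 in Fis1-/-, against 13.4 in Mff-/- and 9.89 in control. Fetub, a gene of the cystatin superfamily, was at 0.843 FPKM in Dnm1l-/- and 0.240 in Fis1-/-, against 15.5 in Mff-/- and 4.73 in control. Tcf15, a helix-loop-helix transcription factor gene expressed in stem cells primed for differentiation, was at 6.74 FPKM in Dnm1l-/- and 10.3 in Fis1-/-, against 84.8 in Mff-/- and 40.7 in control. Dppa3, whose protein protects DNA methylation in the early embryo, was at 8.20 FPKM in Dnm1l-/- and 5.35 in Fis1-/-, against 64.3 in Mff-/- and 26.2 in control. In these 5 genes control lay between the lines and Mff-/-. Lad1 was at 0.828 FPKM in Dnm1l-/- and 0.669 in Fis1-/-, against 13.5 in Mff-/- and 5.004 in control. Eif3j1 was at 0.0378 FPKM in Dnm1l-/- and 0.0369 in Fis1-/-, against 7.24 in Mff-/- and 20.1 in control. Its near-identical partner Eif3j2 is listed at nearly the same positions of chromosome 2 and was at 47.6 and 51.3 FPKM in the lines, 54.8 in Mff-/- and 25.3 in control, so the value of Eif3j1 is uncertain.

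**Figure D3:**
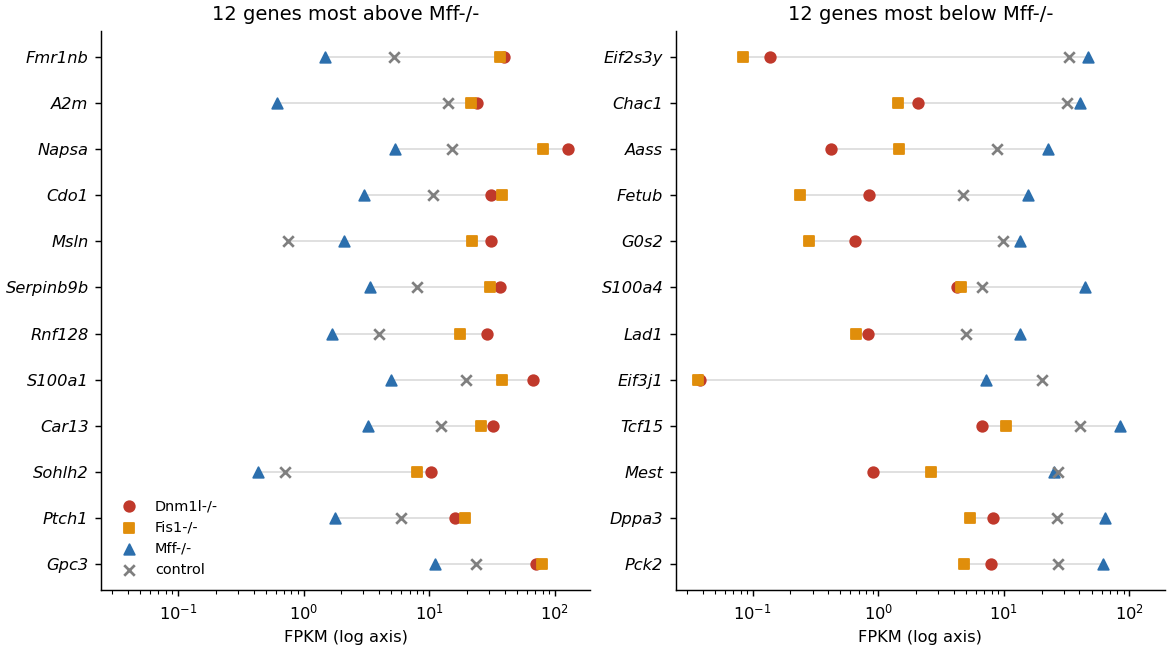
FPKM of each library on a log axis for the 12 genes most above and the 12 most below Mff-/- in both lines, with 1 marker per library. The genes were chosen as past 2-fold in the same direction in both lines. The circle of Dnm1l-/- and the square of Fis1-/- therefore lie on the same side of the Mff-/- triangle by that choice. The place of control differs by gene: close to the lines for A2m (14.2), midway for Ptch1 (5.99), close to Mff-/- for Eif2s3y (33.0) and beyond Mff-/- for Eif3j1 (20.1).

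Many genes of the ATF4 response were lower in both lines than in Mff-/-. The list has 37 measured genes, of which 16 were counted as lower (43.2%, beside 4.61% of all genes) and 0 as higher (beside 5.09%), 15 of them also without the length trend. This list and those below were chosen with earlier results of these data known. Their shares beside those of all genes therefore describe the lists and test nothing. The median of the ATF4 list was -0.97 in Dnm1l-/- and -1.07 in Fis1-/-, and 31 of the 37 lay below Mff-/- in both lines. In 16 of 16 counted genes control was nearer to Mff-/- than to the lines. Chac1, which degrades glutathione (chromosome 2, 119351242 to 119354327, mm10), was at 2.09 FPKM in Dnm1l-/- and 1.43 in Fis1-/-, against 40.2 in Mff-/- and 31.9 in control. Its difference was -3.74 in Dnm1l-/- and -4.08 in Fis1-/-. Trib3, a pseudokinase gene induced by ATF4, was at 7.43 FPKM in Dnm1l-/- and 3.52 in Fis1-/-, against 47.4 in Mff-/- and 42.0 in control. Nupr1, which encodes a stress-induced chromatin factor, was at 32.5 FPKM in Dnm1l-/- and 17.6 in Fis1-/-, against 213 in Mff-/- and 80.4 in control. In Trib3 control was close to Mff-/-, and in Nupr1 it lay between.

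Atf4 RNA itself was at 190 FPKM in Dnm1l-/- and 151 in Fis1-/-, against 199 in Mff-/- and 133 in control, and did not reach 2-fold. Among 11 regulators of the response 4 were counted as lower, and their median was -0.23 in Dnm1l-/- and -0.40 in Fis1-/-. Among 10 genes of amino acid and one-carbon synthesis 5 were lower, with medians of -1.12 and -1.42. Phgdh, which starts serine synthesis, was at 49.8 FPKM in Dnm1l-/- and 52.9 in Fis1-/-, against 168 in Mff-/- and 134 in control. Mthfd2, a mitochondrial enzyme of the folate cycle, was at 31.8 FPKM in Dnm1l-/- and 29.1 in Fis1-/-, against 101 in Mff-/- and 79.95 in control. Pck2, the mitochondrial phosphoenolpyruvate carboxykinase gene, was at 7.92 FPKM in Dnm1l-/- and 4.80 in Fis1-/-, against 61.4 in Mff-/- and 26.8 in control. Asns, the asparagine synthetase gene, did not reach 2-fold, at 142 FPKM in Dnm1l-/- and 120 in Fis1-/-, against 192 in Mff-/- and 201 in control. Among 8 amino acid transporters 2 were lower. The glycine transporter gene Slc6a9 was at 0.683 FPKM in Dnm1l-/- and 0.660 in Fis1-/-, against 8.69 in Mff-/- and 7.85 in control. The remaining one was Slc3a2, the heavy chain gene of several amino acid exchangers, with differences of -1.03 and -1.07. Of 20 cytosolic tRNA synthetases 0 were past 2-fold in both lines, with a median of -0.50 in Dnm1l-/- and -0.56 in Fis1-/- and 16 below Mff-/- in both. Cars, the cysteine enzyme, was at 44.5 FPKM in Dnm1l-/- and 38.2 in Fis1-/-, against 88.9 in Mff-/- and 62.2 in control. Herpud1, a gene of endoplasmic reticulum protein degradation that the list shares with endoplasmic reticulum chaperones, was at 6.38 FPKM in Dnm1l-/- and 6.81 in Fis1-/-, against 25.4 in Mff-/- and 34.6 in control. It was the single counted gene of the 20 chaperones, whose median was -0.07 in Dnm1l-/- and 0.09 in Fis1-/-.

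Some germline genes of the kind that DNA methylation silences in somatic cells were higher in both lines, with control nearer to Mff-/-. Of the 37 genes of the list 18 passed the filter on low values, some of them through the high lines, and 8 of these were counted as higher and 0 as lower. As the filter favours genes that are high in the lines, nothing is read from that share beside the 5.09% of all genes. Of the 18, 13 lay above Mff-/- in both lines and 5 below it, namely Mael, Stk31, Fkbp6, Piwil2 and D1Pas1. D1Pas1, a helicase gene of the testis, was at 3.56 FPKM in Dnm1l-/- and 2.78 in Fis1-/-, against 7.06 in Mff-/- and 3.15 in control. All 8 were also past 2-fold without the length trend, and control was nearer to Mff-/- in 8 of 8. The median of the 18 was 1.03 in Dnm1l-/- and 0.79 in Fis1-/-. Rhox5, an X-linked homeobox gene, was at 779 FPKM in Dnm1l-/- and 764 in Fis1-/-, against 228 in Mff-/- and 76.8 in control. Rhox6 was at 43.8 FPKM in Dnm1l-/- and 30.1 in Fis1-/-, against 5.76 in Mff-/- and 6.02 in control. Rhox genes share sequence, so values of single members are uncertain. Tex19.1, which restrains retrotransposons, was at 66.4 FPKM in Dnm1l-/- and 58.0 in Fis1-/-, against 13.0 in both Mff-/- and control. Dazl, the gene of an RNA-binding protein of germ cells, was at 3.77 FPKM in Dnm1l-/- and 3.84 in Fis1-/-, against 0.363 in Mff-/- and 1.10 in control. Sycp3, of the synaptonemal complex of meiosis, was at 51.5 FPKM in Dnm1l-/- and 60.2 in Fis1-/-, against 24.8 in Mff-/- and 32.4 in control. Among 12 measured genes of the 2-cell-like state, which also passed the filter in part through the lines, only Zscan4b was past 2-fold in both, at 12.9 FPKM in Dnm1l-/- and 8.28 in Fis1-/-, against 2.22 in Mff-/- and 0.642 in control. The median of these 12 was 1.43 in Dnm1l-/- and 0.73 in Fis1-/-.

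Of 8 measured DNA methylation enzymes, the de novo methyltransferases Dnmt3a and Dnmt3b were lower in both lines (25%, beside 4.61% of all genes) and none was higher. Dnmt3b was at 17.5 FPKM in Dnm1l-/- and 20.3 in Fis1-/-, against 62.5 in Mff-/- and 31.0 in control. Dnmt3a was at 2.29 FPKM in Dnm1l-/- and 2.79 in Fis1-/-, against 7.43 in Mff-/- and 7.74 in control. Control was nearer to the lines in Dnmt3b and close to Mff-/- in Dnmt3a. The list's median of 0.14 turned to -0.19 without the length trend.

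Imprinted genes, expressed from 1 parental allele, differed in both directions. Of 21 measured, 7 were higher and 5 lower in both lines (33.3% and 23.8%, beside 5.09% and 4.61% of all genes), 5 and 5 without the length trend, and the median of the list changed sign with that trend (0.35 and -0.11). Of 13 genes listed as paternally expressed 6 were higher and 2 lower. Of 8 listed as maternally expressed, Gnas among them, 1 was higher and 3 lower. Plagl1, a paternally expressed zinc finger gene, was at 4.77 FPKM in Dnm1l-/- and 3.93 in Fis1-/-, against 0.0316 in Mff-/- and 1.07 in control. Plagl1 passed the filter on low values through the lines, where it was high. Slc38a4, a paternally expressed amino acid transporter gene, was at 110 FPKM in Dnm1l-/- and 95.7 in Fis1-/-, against 24.3 in Mff-/- and 29.7 in control. Sgce, of the sarcoglycan family, was at 12.5 FPKM in Dnm1l-/- and 10.4 in Fis1-/-, against 2.30 in Mff-/- and 2.49 in control. Mest went the other way among paternally expressed genes, at 0.909 FPKM in Dnm1l-/- and 2.61 in Fis1-/-, against 25.1 in Mff-/- and 27.2 in control. Gnas, the gene of the stimulatory G protein alpha subunit, was at 58.1 FPKM in Dnm1l-/- and 57.0 in Fis1-/-, against 265 in Mff-/- and 228 in control. Its locus makes transcripts of both parental origins, which the sum does not part, so its place among the lower maternally expressed genes is uncertain. Cdkn1c, the maternally expressed gene of a cell cycle inhibitor, was at 3.78 FPKM in Dnm1l-/- and 3.73 in Fis1-/-, against 20.7 in Mff-/- and 9.65 in control. In 9 of the 12 counted imprinted genes control was nearer to Mff-/-.

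Some genes of glycogen metabolism were higher in the lines, and control was nearer to the lines in 3 of the 4. Of 12 measured glycogen genes 4 were counted as higher (33.3%, beside 5.09% of all genes) and 0 as lower, all 4 also without the length trend, and the median was 0.80 in Dnm1l-/- and 0.74 in Fis1-/-. Pgm2, which interconverts glucose phosphates, was at 67.1 FPKM in Dnm1l-/- and 66.5 in Fis1-/-, against 10.7 in Mff-/- and 74.4 in control. Gbe1, the glycogen branching enzyme gene, was at 5.39 FPKM in Dnm1l-/- and 7.28 in Fis1-/-, against 1.07 in Mff-/- and 7.57 in control. Both genes were low in Mff-/- alone. The glycogen phosphorylase gene Pygl was at 5.10 FPKM in Dnm1l-/- and 4.02 in Fis1-/-, against 0.558 in Mff-/- and 3.98 in control. Its brain form Pygb was at 9.78 FPKM in Dnm1l-/- and 9.02 in Fis1-/-, against 2.49 in Mff-/- and 4.96 in control, so that control lay between.

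Of 22 glycolysis genes 1 was higher and 1 lower (4.55% each, near the 5.09% and 4.61% of all genes). Above Mff-/- in both lines at any size were 15 of the 22, and the median was 0.50 in Dnm1l-/- and 0.44 in Fis1-/-. The list summed to 19150 FPKM in Dnm1l-/- and 18528 in Fis1-/-, against 11747 in Mff-/- and 16954 in control. Eno1, the ubiquitous enolase gene, was at 1858 FPKM in Dnm1l-/- and 1886 in Fis1-/-, against 693 in Mff-/- and 1705 in control. Eno3, the muscle enolase gene, was at 6.02 FPKM in Dnm1l-/- and 5.27 in Fis1-/-, against 17.7 in Mff-/- and 8.88 in control. The enolase genes thus lay on opposite sides, with control nearer to the lines in both. Gpi1, which acts after hexokinase, was at 395 FPKM in Dnm1l-/- and 410 in Fis1-/-, against 204 in Mff-/- and 395 in control, just short of 2-fold in Dnm1l-/- (0.95). Among 17 genes of pyruvate and lactate handling only the pyruvate carboxylase gene Pcx was counted, at 11.98 FPKM in Dnm1l-/- and 14.3 in Fis1-/-, against 5.44 in Mff-/- and 23.9 in control. It did not stay past 2-fold without the length trend. Ldhb, a lactate dehydrogenase gene, was past 2-fold in Fis1-/- only, at 240 FPKM in Dnm1l-/- and 388 in Fis1-/-, against 149 in Mff-/- and 712 in control. Ldha was at 1080 to 1091 FPKM in every library.

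Of 24 measured genes of the hypoxia response outside glycolysis 5 were higher (20.8%, beside 5.09% of all genes) and 2 lower (8.33%, beside 4.61%). The median was 0.35 in Dnm1l-/- and 0.36 in Fis1-/-. The 24 include 7 factors and hydroxylases, of which 0 were counted. Of the 17 targets 9 lay above Mff-/- in both lines and 8 below it, with medians of 0.24 in Dnm1l-/- and 0.23 in Fis1-/-. Vegfa, a target, was lower without reaching 2-fold (-0.88 and -0.98). P4ha1, a collagen prolyl hydroxylase gene, was at 15.4 FPKM in Dnm1l-/- and 21.2 in Fis1-/-, against 4.20 in Mff-/- and 10.5 in control. Anxa2, the annexin gene, was at 163 FPKM in Dnm1l-/- and 201 in Fis1-/-, against 52.3 in Mff-/- and 196 in control. The 2 lower members, the mTOR inhibitor gene Ddit4 and the stanniocalcin gene Stc2, also belong to the ATF4 list. Ddit4 was at 15.4 FPKM in Dnm1l-/- and 15.2 in Fis1-/-, against 62.1 in Mff-/- and 44.8 in control.

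Genes of the mitochondrial ribosome lay lower in the lines than in Mff-/-, less so without the length trend. Those of oxidative phosphorylation lay lower as deposited, by a median that was small once the trend was removed. The trend was fitted on all compared genes, these included, so its removal can also take away a difference of their own. What part length has in either list was not tested. Of 76 mitochondrial ribosome genes 10 were counted as lower (13.2%, beside 4.61% of all genes) and 0 as higher, and 74 lay below Mff-/- in both lines. Their median was -0.61 in Dnm1l-/- and -0.67 in Fis1-/-, and the median of the mean of both was -0.62 as deposited and -0.31 without the length trend, when 3 of the 10 were still counted. In 10 of 10 control was nearer to the lines. Mrpl34, of the large subunit, was at 31.0 FPKM in Dnm1l-/- and 30.1 in Fis1-/-, against 134 in Mff-/- and 52.2 in control. Mrps12, of the small subunit, was at 37.8 FPKM in Dnm1l-/- and 34.2 in Fis1-/-, against 113 in Mff-/- and 36.7 in control. Of 76 oxidative phosphorylation genes 5 were lower (6.58%, near the 4.61% of all genes) and 0 higher, with a median of -0.52 in Dnm1l-/- and -0.59 in Fis1-/-. Without the length trend the median of the mean of both lines was -0.06, beside -0.57 as deposited, and the median transcript of these genes has 666 bases. Atp5e, a small subunit of the ATP synthase, was at 271 FPKM in Dnm1l-/- and 275 in Fis1-/-, against 991 in Mff-/- and 612 in control, and alone of the 5 held without the length trend. The 74 cytosolic ribosomal protein genes, also short, had a median of -0.26 as deposited that turned to 0.19 without the trend, with 0 past 2-fold. Of 18 genes of the tricarboxylic acid cycle 0 were past 2-fold, with a median of 0.19 in Dnm1l-/- and 0.15 in Fis1-/-. Idh2, the mitochondrial isocitrate dehydrogenase gene, was at 100.5 FPKM in Dnm1l-/- and 105 in Fis1-/-, against 53.8 in Mff-/- and 128 in control.

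**Figure D4:**
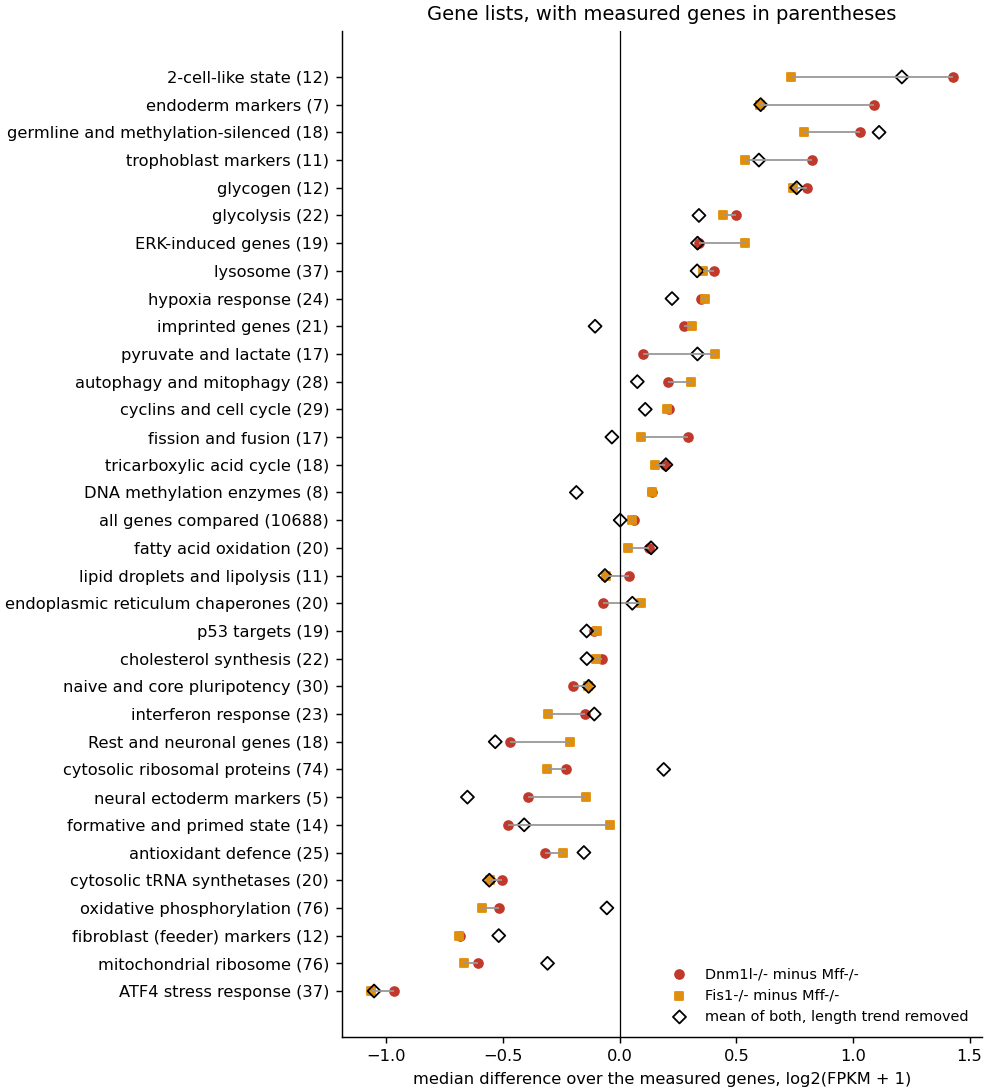
Median difference from Mff-/- on the log2(FPKM + 1) scale over the measured genes of each list, with circles for Dnm1l-/-, squares for Fis1-/- and open diamonds for the mean of both after removal of the length trend; lists with under 5 measured genes are left out. The ATF4 list stands lowest at -0.97 and -1.07 with its diamond at -1.05, while the diamond of oxidative phosphorylation lies at -0.06 and that of cytosolic ribosomal proteins at 0.19.

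Pluripotency factors were split. Of 30 genes 4 were higher and 4 lower in both lines (13.3% each, beside 5.09% and 4.61% of all genes), and the median of the mean of both (-0.16) turned to 0.06 when libraries were rescaled to the mean total. Klf5, a naive state transcription factor gene, was at 53.5 FPKM in Dnm1l-/- and 52.1 in Fis1-/-, against 10.4 in Mff-/- and 27.8 in control. Tfcp2l1, another factor of the naive state, was at 114 FPKM in Dnm1l-/- and 88.8 in Fis1-/-, against 23.5 in Mff-/- and 35.4 in control. Nanog was at 437 FPKM in Dnm1l-/- and 389 in Fis1-/-, against 178 in Mff-/- and 221 in control. These 3 and the orphan receptor gene Nr5a2 were the higher ones. Klf2, also a naive factor gene, was counted as lower, at 51.1 FPKM in Dnm1l-/- and 60.0 in Fis1-/-, against 187 in Mff-/- and 80.9 in control. Tbx3, another, was past 2-fold lower in Fis1-/- only (-0.59 in Dnm1l-/- and -1.22 in Fis1-/-). Of 17 naive factors 10 lay above Mff-/- in both lines and 6 below it, with medians of 0.54 in Dnm1l-/- and 0.39 in Fis1-/-. Of 13 core factors 2 lay above Mff-/- in both lines and 11 below it, with medians of -0.78 and -0.67. Among the core factors 1 was counted as higher and 3 as lower. Utf1, a chromatin-bound factor of pluripotent cells, was at 118 FPKM in Dnm1l-/- and 138 in Fis1-/-, against 451 in Mff-/- and 224 in control. Pou5f1, which encodes Oct4, was at 913 FPKM in Dnm1l-/- and 808 in Fis1-/-, against 1753 in Mff-/- and 1208 in control, with differences of -0.94 and -1.12. Of 14 genes of the formative and primed state, which follows the naive one, 5 were lower (35.7%, beside 4.61% of all genes) and 0 higher, all 5 also without the length trend. Besides Tcf15 they were Otx2, Fgf15, Lef1 and Etv4. Lef1 passed the filter on low values only through Mff-/-, where it was high, so nothing is read from the share of this list. The list was not lower throughout, as 6 of the 14 lay above Mff-/- in both lines and 7 below it. Its median was -0.48 in Dnm1l-/- and -0.04 in Fis1-/-. The median of the mean of both (-0.28) turned to 0.102 with a filter at 5 FPKM. Fgf15 was at 1.13 FPKM in Dnm1l-/- and 1.83 in Fis1-/-, against 12.4 in Mff-/- and 2.90 in control. Lef1, a transcription factor gene of the Wnt pathway, was at 0.166 FPKM in Dnm1l-/- and 0.522 in Fis1-/-, against 4.96 in Mff-/- and 1.06 in control.

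Genes induced by the kinase ERK were higher in part. Of 19 measured, 5 were higher in both lines (26.3%, beside 5.09% of all genes) and 1 lower (5.26%), the lower one being Atf3, which did not hold without the length trend. Dusp5, a phosphatase of ERK, was at 13.7 FPKM in Dnm1l-/- and 10.5 in Fis1-/-, against 1.94 in Mff-/- and 13.4 in control. Spred2, an inhibitor of the pathway, was at 8.90 FPKM in Dnm1l-/- and 10.9 in Fis1-/-, against 2.82 in Mff-/- and 10.8 in control. The immediate-early gene Fos was at 8.80 FPKM in Dnm1l-/- and 9.55 in Fis1-/-, against 3.20 in Mff-/- and 6.03 in control. The remaining 2 were Phlda1 and Jun. Rest, which encodes the repressor of neuronal genes, was at 18.7 FPKM in Dnm1l-/- and 18.2 in Fis1-/-, against 3.22 in Mff-/- and 15.6 in control, so that Mff-/- alone was low. Its cofactor gene Rcor1 was at 5.07 FPKM in Dnm1l-/- and 5.70 in Fis1-/-, against 0.896 in Mff-/- and 3.51 in control. Of 14 measured neuronal genes 2 were lower and 1 higher, with medians of -0.61 in Dnm1l-/- and -0.45 in Fis1-/-. With Rest and its cofactors the list of 18 had 3 higher (16.7%, beside 5.09% of all genes) and 2 lower (11.1%, beside 4.61%). Also past 2-fold without the length trend were 3 and 1. Cyclin D1 (Ccnd1) was at 7.92 FPKM in Dnm1l-/- and 11.2 in Fis1-/-, against 51.5 in Mff-/- and 24.1 in control. Cdkn1b, which encodes the cell cycle inhibitor p27, was at 18.8 FPKM in Dnm1l-/- and 19.23 in Fis1-/-, against 5.58 in Mff-/- and 17.9 in control. Of 29 cyclin and cell cycle genes it was the single higher one (3.45%, beside 5.09% of all genes). Ccnd1 and Cdkn1c were the 2 lower ones (6.9%, beside 4.61%).

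Lysosome genes included 4 higher (10.8%, beside 5.09% of all genes) and 1 lower (2.70%, beside 4.61%) of 37, 3 and 0 also without the length trend, with a median of 0.40 in Dnm1l-/- and 0.36 in Fis1-/-. Atp6v1a, the catalytic subunit gene of the proton pump, was at 53.4 FPKM in Dnm1l-/- and 46.3 in Fis1-/-, against 14.5 in Mff-/- and 28.1 in control. Lipa, the acid lipase gene, was at 3.86 FPKM in Dnm1l-/- and 3.69 in Fis1-/-, against 0.634 in Mff-/- and 0.988 in control. Lipa passed the filter on low values through the lines, where it was high. Of 28 autophagy and mitophagy genes 3 were higher (10.7%) and 1 lower (3.57%), and 2 and 0 also without the length trend. Gabarapl1 and Gabarapl2, related proteins of the autophagosome membrane, lay on opposite sides. Gabarapl1 was at 32.1 FPKM in Dnm1l-/- and 35.8 in Fis1-/-, against 9.95 in Mff-/- and 22.3 in control. Gabarapl2 was at 88.6 FPKM in Dnm1l-/- and 83.9 in Fis1-/-, against 199 in Mff-/- and 161 in control. Sqstm1, the receptor p62, was at 217 FPKM in Dnm1l-/- and 228 in Fis1-/-, against 94.2 in Mff-/- and 177 in control. Of 25 antioxidant genes 4 were higher (16%, beside 5.09% of all genes) and 2 lower (8%, beside 4.61%), 3 and 1 also without the length trend. Their median was -0.32 in Dnm1l-/- and -0.24 in Fis1-/-, with 11 above Mff-/- in both lines and 14 below it. Catalase (Cat), a higher one, was at 59.3 FPKM in Dnm1l-/- and 48.5 in Fis1-/-, against 19.21 in Mff-/- and 22.8 in control. Gpx2, a glutathione peroxidase gene, was at 2.48 FPKM in Dnm1l-/- and 2.43 in Fis1-/-, against 10.7 in Mff-/- and 1.80 in control. In the remaining lists 1 to 3 genes were counted, in p53 targets (2 higher and 1 lower of 19), interferon response (1 and 1 of 23), cholesterol synthesis (1 and 0 of 22), fatty acid oxidation (1 and 0 of 20) and lipid droplets and lipolysis (0 and 1 of 11). The largest of these shares were 10.5% higher in p53 targets and 9.09% lower in lipid droplets and lipolysis, beside 5.09% and 4.61% of all genes. Oasl1, an interferon-induced gene, was at 39.9 FPKM in Dnm1l-/- and 17.6 in Fis1-/-, against 2.52 in Mff-/- and 4.38 in control. Srebf2, the regulator of cholesterol synthesis, was at 39.2 FPKM in Dnm1l-/- and 39.5 in Fis1-/-, against 17.3 in Mff-/- and 30.9 in control.

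Markers of other cell types that the cultures could hold also differed. Of 25 fibroblast markers, which the feeder cells express, 12 passed the filter. Of these 3 were at least 2-fold lower in both lines (25%, beside 4.61% of all genes) and 0 higher. Of the 12, 9 lay below Mff-/- in both lines and 2 above it. They summed over all 25 to 395 FPKM in Dnm1l-/- and 414 in Fis1-/-, against 537 in Mff-/- and 502 in control. S100a4, a calcium-binding protein gene of fibroblasts, was at 4.22 FPKM in Dnm1l-/- and 4.56 in Fis1-/-, against 44.0 in Mff-/- and 6.70 in control. Thy1, a surface marker, was at 3.98 FPKM in Dnm1l-/- and 3.55 in Fis1-/-, against 11.9 in Mff-/- and 4.10 in control. The type I collagen gene Col1a1 was at 0.965 FPKM in Dnm1l-/- and 1.07 in Fis1-/-, against 3.27 in Mff-/- and 1.505 in control. Fn1, the fibronectin gene and an abundant member, went the other way, at 91.3 FPKM in Dnm1l-/- and 103 in Fis1-/-, against 50.1 in Mff-/- and 107 in control. Tagln, a gene of the actin cytoskeleton, was at 18.1 FPKM in Dnm1l-/- and 18.7 in Fis1-/-, against 13.1 in Mff-/- and 10.3 in control. The collagen genes of the list stayed under 4 FPKM in every library, and Fap and Lum were at most at 0.0429 FPKM. Of 20 trophoblast markers 11 passed the filter, and 4 were higher (36.4%, beside 5.09% of all genes), 3 also without the length trend. Of the 11, 6 lay above Mff-/- in both lines and 3 below it. The keratin gene Krt42 was at 144 FPKM in Dnm1l-/- and 95.6 in Fis1-/-, against 28.7 in Mff-/- and 19.6 in control. The 20 summed to 290 FPKM in Dnm1l-/- and 189 in Fis1-/-, against 104 in Mff-/- and 90.3 in control, with Krt42 the largest member in both lines. The keratin gene Krt8 was at 39.9 FPKM in Dnm1l-/- and 12.9 in Fis1-/-, against 11.3 in Mff-/- and 9.73 in control. Krt18 was at 27.1 FPKM in Dnm1l-/- and 11.9 in Fis1-/-, against 14.9 in Mff-/- and 8.59 in control. The defining trophoblast genes went both ways. Elf5 was listed at 0 in both lines and was at 0.207 FPKM in Mff-/-. Cdx2 was at 0.0828 FPKM in Dnm1l-/- and listed at 0 in Fis1-/-, against 0.764 in Mff-/-. Eomes was higher in the lines, at 3.68 FPKM in Dnm1l-/- and 3.66 in Fis1-/-, against 1.66 in Mff-/- and 1.83 in control. Gata3 was at 1.03 FPKM in Dnm1l-/- and 0.524 in Fis1-/-, against 0.432 in Mff-/- and 0.233 in control. Endoderm markers (7 of 20 measured) had 1 higher (14.3%), which did not hold without the length trend, and 0 lower. Neural ectoderm markers (5 of 13) had 0 higher and 1 lower (20%), and of 14 mesoderm markers 0 were measured. The part of these cells in the other differences was not tested.

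Genes of the X chromosome were counted as higher more often than all genes. Of 343 compared, 37 were higher in both lines (10.8%, beside 5.09% of all genes) and 15 lower (4.37%, beside 4.61%). Their median was 0.25 in Dnm1l-/- and 0.30 in Fis1-/-, and the median of the mean of both was 0.28 as deposited and 0.21 without the length trend. Among X-linked partners of Y genes, the helicase gene Ddx3x was at 188 FPKM in Dnm1l-/- and 198 in Fis1-/-, against 89.4 in Mff-/- and 146 in control. Its count did not hold without the length trend. Eif2s3x, the partner of Eif2s3y, was at 110 FPKM in both lines, against 94.5 in Mff-/- and 87.5 in control. Chromosome 2, where Chac1, Trib3 and Tcf15 lie, had 71 lower genes of 850 (8.35%) and 40 higher. Chromosome 18 had the highest median of the autosomes, 0.29 as deposited and 0.15 without the length trend, with 20 of 254 genes higher and 4 lower.

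**Figure D5:**
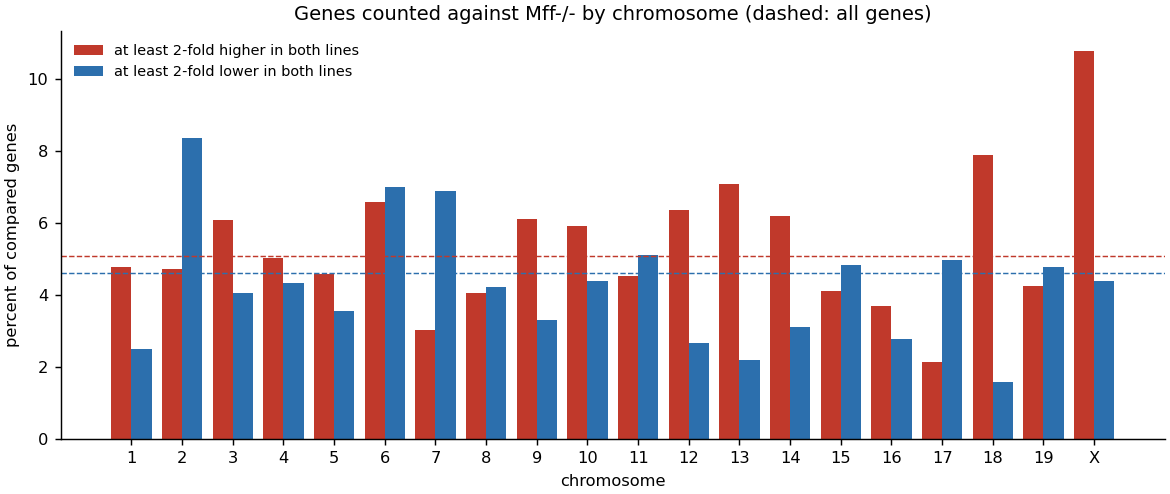
Share of the compared genes of each chromosome, in percent, at least 2-fold higher (red) or lower (blue) in both lines than in Mff-/-, with dashed lines at the shares over all genes (5.09% and 4.61%). The X chromosome has the tallest red bar at 10.8% and chromosome 2 the tallest blue bar at 8.35%; the Y chromosome, with 3 compared genes, is left out.

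The place of control between the 2 sides varied, and for many genes it was 2-fold from neither. Of the 544 higher genes control was at least 2-fold from Mff-/- only in 167, from the mean of the lines only in 111, from both in 15 and from neither in 251. Of the 493 lower genes these numbers were 169, 105, 18 and 201. Of the 544 higher genes control was nearer to the lines in 341 (62.7%) and nearer to Mff-/- in 203 (37.3%). Of the 493 lower genes it was nearer to the lines in 286 (58.0%) and nearer to Mff-/- in 207 (42.0%). Among genes past 2-fold also without the length trend these numbers were 192 and 147 of the 339 higher genes and 151 and 162 of the 313 lower genes. By list, control was nearer to Mff-/- in every counted gene of the ATF4 response (16), of the germline genes (8) and of the trophoblast markers (4). It was nearer to the lines in every counted gene of the mitochondrial ribosome (10), glycolysis (2) and fibroblast markers (3), and in 3 of 4 glycogen and 5 of 6 ERK-induced genes. This is a description of 4 libraries, and the spread of the control was not measured.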

How the data were processed

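RNA of 4 mouse embryonic stem cell lines, 1 library each, was grouped by genotype label. Per the labels' protocols, RNA was isolated with Trizol and libraries were made with an Illumina TruSeq kit, which the series design calls stranded. The use of strand in counting is not stated in the labels or file headers. The deposited table of the authors holds FPKM values of 33818 transcripts, with lengths and positions. Per the submitters' processing notes, the build was mm10 and the tools included StringTie 1.3.3b, STAR 2.5.2b, FastQC 0.11.5 and R 3.6.1, whose roles are not described. Drp1, the protein name, heads the Dnm1l column. FPKM scales each library by its own fragments, so abundant transcripts can shift all others. Transcript starts lay 1 below RefSeq in 10834 of 17580 single-transcript genes, and 1 was added.

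FPKM was summed over the transcripts of a symbol (552 of 565 unnamed transcripts were named through their gene ID), and genes with a protein-coding transcript and a mean of at least 1 FPKM were kept. Slc2a4 was just inside that filter, with a mean of 1.00062 FPKM, and Gpld1 just outside, with 0.999497. Differences used log2(FPKM + 1). The trend on log2 length was removed in each line by lowess (fraction 0.3, statsmodels 0.14.6, pandas 2.3.3, Python 3.11.15). GC content came from GENCODE mouse transcripts. Depth was estimated from low values of genes with 1 transcript of at least 3000 bases, of which 80.6% to 82.1% lay within 0.15 of a whole multiple. The procedure was tested on simulated data. No significance test was made. The 12 highest and 12 lowest genes past 2-fold with and without the trend, up to 4 counted members per list (or its 2 largest), the targeted genes and Cldn15 were named by rule, and further list members were chosen after their values were seen. The members and lists were chosen with earlier results of these data known. Alternatives covered the pseudocount, filter, scaling, length and GC trends, transcripts summed and libraries left out.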

Additional observations from a re-analysis of the deposited data

Results flagged for a closer look

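Noncoding RNAs were outside the main comparison. Of 299 with at least 300 bases and a mean of 1 FPKM or more, 9 (3.01%) were at least 2-fold higher and 27 (9.03%) at least 2-fold lower in both lines than in Mff-/-. Those named here also had their higher side at least 2-fold above control. E030011O05Rik was the single one higher in the lines, at 4.02 FPKM in Dnm1l-/- and 3.12 in Fis1-/-, against 0.0931 in Mff-/- and 0.705 in control, a mean difference of 2.06 on the log2(FPKM + 1) scale. The others were lower. The small nucleolar RNA host genes Snhg3 and Dancr had mean differences of -1.09 and -1.11. Dancr was at 22.5 FPKM in Dnm1l-/- and 22.0 in Fis1-/-, against 49.3 in Mff-/- and 21.4 in control. Gm11627 differed by -2.27, Rplp2-ps1 by -2.23, Gm5860 by -2.06 and 2210039B01Rik by -2.02. BC051226 differed by -1.33, Ndufs5-ps by -1.22, AA465934 by -1.21 and Atp6v0c-ps2 by -1.17. Rplp2-ps1, Ndufs5-ps and Atp6v0c-ps2 are named as pseudogenes, and their reads may be shared with their parent genes. These transcripts have 389 to 1118 bases, a range in which coding genes were also lower. Whether length plays a part here was not tested.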

How the results depend on the processing

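No paired analysis was possible because each group has 1 library, so the groups share fewer than 2 replicate numbers. Leaving out 1 line at a time gave 728 to 736 higher and 592 to 640 lower genes, with an all-gene median of 0.05 to 0.06. Genes were then counted on the other line alone, so these repeat the single-line counts given above. No gene counted in both lines could be lost, and nothing is read from these counts about stability. A pseudocount of 0.1 gave 961 higher genes, and a pseudocount of 5 gave 158 higher and 256 lower. Rescaling to the mean total gave 899 higher and 305 lower genes with a median of 0.24, and leaving out the 1% most abundant genes gave 835 higher genes with a median of 0.22. Some list medians changed sign. Under rescaling to the mean total these were pluripotency (0.0551), interferon response (0.0236) and cholesterol synthesis (0.0955). With the 1% most abundant genes left out they were pluripotency (0.0467), antioxidant defence (0.217) and cholesterol synthesis (0.0609). Without the length trend by lowess, by 20 bins, and with GC removed too, they were fission and fusion (-0.0337, -0.00316 and -0.00718), DNA methylation enzymes (-0.186, -0.119 and -0.141), imprinted genes (-0.106, -0.0897 and -0.0978) and cytosolic ribosomal proteins (0.188, 0.177 and 0.244). DNA methylation enzymes were also at -0.062 with no filter and at -0.31 with the highest transcript only. Endoderm markers were at -0.0901 with no filter, formative genes at 0.102 with a filter at 5 FPKM, and neural ectoderm markers at 0.0112 with the filter over the knockout libraries. The cause of these changes was not tested. Among the 117 named genes a change of direction was looked for only in those counted as deposited, and 0 of these reversed. Of the counted ones 12 dropped under 2-fold by lowess, 14 with GC removed too, 25 with a pseudocount of 5 and 7 on rescaling to the mean total. The 12 highest and 12 lowest genes were chosen as past 2-fold without the lowess trend, so they could not drop by lowess. Depth limits values of low genes such as Lef1, and the spread between cultures was not measured.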

Other observations

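Maternally expressed RNAs of the Dlk1-Meg3 domain on chromosome 12 were lower in both lines than in Mff-/-, and control stood with Mff-/-. Meg3 was at 11.3 FPKM in Dnm1l-/- and 21.9 in Fis1-/-, against 62.7 in Mff-/- and 59.8 in control. Rian was at 9.24 FPKM in Dnm1l-/- and 16.7 in Fis1-/-, against 41.0 in Mff-/- and 45.9 in control. Mirg was at 3.52 FPKM in Dnm1l-/- and 5.65 in Fis1-/-, against 17.0 in Mff-/- and 20.7 in control. In all 3 the Dnm1l-/- library was the lowest of the 4. Malat1, a nuclear RNA of 6982 bases, was at 59.5 FPKM in Dnm1l-/- and 49.9 in Fis1-/-, against 15.9 in Mff-/- and 50.6 in control, so that Mff-/- alone was low.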
